A study of Mus musculus with 3 samples.

Results

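Surface marker genes of mammary stem and progenitor cells were described in sorted cells of the mouse embryonic mammary gland. The 8 genes were Procr, Prom1, Cd24a, Epcam, Kit, Cd44, Ly6d and Ngfr, and they were taken through all probe sets annotated with exactly 1 of these symbols. A probe set is a group of short probes on the array that together measure 1 transcript or a few. The rule found 15 of 28898 probe sets with a single gene symbol, and 8 of 17097 genes. The series held 3 arrays of 1 group. Each sample came from the pooled female embryos of 1 litter at embryonic day 14, all carrying the Lgr5-IRES-GFP allele, in which green fluorescent protein is made from the Lgr5 locus. Skin epidermis and mammary gland were digested together, and the cells sorted were those bright for both CD49f and the Lgr5 reporter, 813 or 2000 per sample, without a label that tells which sample had which number. No second cell population, age or genotype was compared. The 8 genes had no stated part in the sort.

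Antibodies against surface proteins are the usual way to separate cells of the mammary gland. CD24 and EpCAM divide epithelium from stroma, and CD49f and CD29 divide basal from luminal epithelium. CD133, the product of Prom1, and the receptor KIT mark luminal subsets of the adult gland, whereas PROCR and NGFR are used to find basal cells. Embryonic mammary cells are studied because they can give rise to both lineages, and the series title asks how p63 governs the loss of this capacity. RNA of a marker gene need not follow the protein on the cell surface, and RNA of pooled cells does not show which genes were expressed together in 1 cell.

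The values were log2 expression per probe set as deposited. Without a control group, each gene was set against a background on the same arrays, the 95th percentile of 74 olfactory and vomeronasal receptor genes. For replicates 1, 2 and 3 this threshold came to 6.14, 6.17 and 5.99. The mean distance from the threshold was tested with limma across all 17097 genes, one-sided, and a gene with a Benjamini-Hochberg adjusted p under 0.05 was called above background. A gene with several probe sets was represented by the one with the highest mean. Levels of different genes were not ranked, because probe sets differ in how strongly they bind. Replicate 3 had a higher median over all probe sets (6.52, against 6.25 on replicate 1 and 6.25 on replicate 2), so differences between arrays are also given after each array was centred on a common median. Both sort genes were above background, with Itga6, the CD49f gene, at 10.05, 10.24 and 10.82 and Lgr5 at 9.99, 10.04 and 10.78 on replicates 1, 2 and 3.

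Of the 8 genes, 6 were above background, against 55.1% of all genes. Prom1, Cd24a, Epcam, Cd44 and Ngfr were above it by 2.51 to 5.63 on the log2 scale, and Ly6d by 0.43. Procr and Kit were not called. The median distance of the 8 genes from the threshold was 2.70, and that of all genes was 0.78. A stricter threshold, taken from 48 genes restricted to unrelated tissues such as testis, eye and pancreas, left 5 of the 8 genes above it, against 34.4% of all genes. The same number, 5, lay above the brightest antigenomic control probe set, against 31.6% of all genes. Ly6d was the gene lost in both cases. Among the 48 genes that set the stricter threshold, 15 were themselves called above background. A call above background alone therefore does not show that a gene was expressed in the sorted cells. In cells sorted in bulk, fewer cells of a type and less RNA per cell cannot be told apart. With 3 arrays, their number limited the precision.

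**Figure D1:**
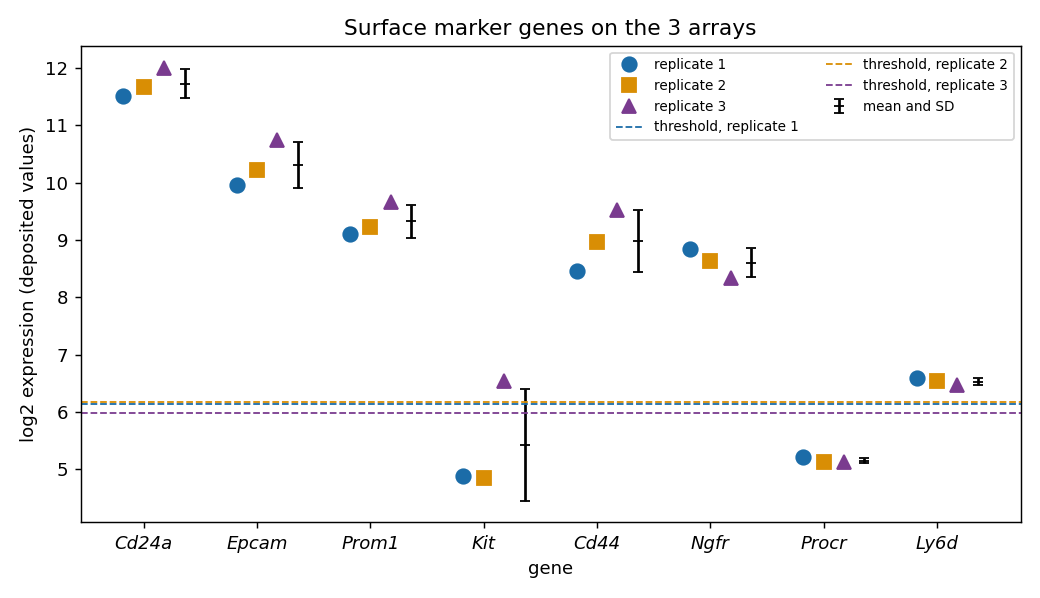
Deposited log2 expression (vertical axis) of the 8 genes (horizontal axis) on the 3 arrays, 1 point per replicate, with the mean and SD in black and the threshold of each array as a dashed line. Cd24a, Epcam, Prom1, Cd44 and Ngfr lie above the lines on every array, Procr lies below them, Ly6d just above them, and Kit above them on replicate 3 alone.

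Among the general epithelial markers, Cd24a and Epcam gave a clear signal on each array. Cd24a encodes a small glycoprotein held in the membrane by a lipid anchor. It measured 11.51, 11.67 and 12.01 (log2) in replicates 1, 2 and 3, a mean of 11.73 ± 0.25 (SD, n = 3). All 3 arrays lay far above their thresholds, and the mean stood 5.63 above (95% interval 5.21 to 6.05, limma adjusted p = 1.51e-05). A second probe set of Cd24a had 11.25, 11.43 and 12.21 and was above background as well. The array order was the same for both probe sets.

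Epcam encodes an adhesion protein that spans the membrane of nearly all simple epithelia. Its brighter probe set measured 9.96, 10.22 and 10.75 (log2) in replicates 1, 2 and 3 (10.31 ± 0.40, SD, n = 3), which was 4.21 above the threshold (95% interval 3.63 to 4.79, limma adjusted p = 5.30e-05). No array came near the background. The other probe set, whose suffix marks probes that can bind other transcripts, had 5.72, 6.06 and 7.11 and was not above background (0.20 above the threshold, limma adjusted p = 0.504). It lay below the threshold on replicates 1 and 2 and above it on replicate 3. With the mean of both probe sets in place of the brighter one, Epcam stood 2.42 above the threshold.

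The luminal markers of the adult gland split, with Prom1 above background and Kit not called. Prom1 encodes prominin 1, a protein with several membrane passages that gathers in membrane protrusions. Its probe set measured 9.10, 9.23 and 9.66 (log2) in replicates 1, 2 and 3 (9.33 ± 0.29, SD, n = 3). These values were 3.23 above the threshold on average (95% interval 2.70 to 3.76, limma adjusted p = 8.30e-05), and each array was above its own threshold by at least 2.96.

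Kit encodes the receptor tyrosine kinase for stem cell factor. Its probe set measured 4.89, 4.85 and 6.55 (log2) in replicates 1, 2 and 3 (5.43 ± 0.97, SD, n = 3). Replicates 1 and 2 lay below their thresholds by more than 1 on the log2 scale, and replicate 3 lay above its own by 0.56. The mean distance was -0.67 (95% interval -1.74 to 0.39, limma adjusted p = 1.00), so Kit was not above background over the litters. Its SD was larger than that of 98.8% of the genes above background. Kit is not among these genes, and the test that called them favours a small spread. Leaving out replicate 3 gave a distance of -1.29, and leaving out replicate 2 gave -0.35.

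Epcam and Prom1 were the pair of epithelial genes for which RefSeq gave a promoter window, and Kit, Cd44, Procr and Ngfr had windows too, which makes 6 of the 8 genes. Each window runs from 250 bases before to 50 bases after an annotated start, on the gene's strand, in GRCm38.p6. The Epcam window (chr17:87635729-87636028, plus strand) and the first Prom1 window (chr5:44101687-44101986, minus strand) are shown because these genes were above background on every array. The Procr window (chr2:155750967-155751266, plus strand) is shown because that gene was below the threshold on every array, and the Ngfr window (chr11:95587649-95587948, minus strand) because that gene was well above background and lowest on replicate 3. Capitals mark matches on either strand to the GC box GGGCGG, to CACCTG, the E-box bound by Snai and Zeb repressors, and to the CCAAT box.
Epcam: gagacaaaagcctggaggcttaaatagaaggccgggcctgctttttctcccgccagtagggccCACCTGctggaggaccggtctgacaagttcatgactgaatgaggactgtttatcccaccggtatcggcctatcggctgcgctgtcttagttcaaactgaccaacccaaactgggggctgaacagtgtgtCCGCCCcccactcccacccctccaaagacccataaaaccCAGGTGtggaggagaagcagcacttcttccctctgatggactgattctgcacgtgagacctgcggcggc
Prom1: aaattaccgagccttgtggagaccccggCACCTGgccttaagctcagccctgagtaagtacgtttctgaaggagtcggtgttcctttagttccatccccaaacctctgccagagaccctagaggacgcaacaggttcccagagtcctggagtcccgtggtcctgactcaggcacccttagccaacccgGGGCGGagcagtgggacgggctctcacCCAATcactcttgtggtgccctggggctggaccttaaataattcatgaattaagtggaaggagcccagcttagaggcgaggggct
Procr: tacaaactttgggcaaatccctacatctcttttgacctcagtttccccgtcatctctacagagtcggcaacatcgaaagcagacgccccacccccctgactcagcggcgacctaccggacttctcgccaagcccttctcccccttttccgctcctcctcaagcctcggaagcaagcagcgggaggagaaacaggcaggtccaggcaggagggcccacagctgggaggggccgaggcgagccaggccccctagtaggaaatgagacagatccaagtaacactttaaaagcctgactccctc
Ngfr: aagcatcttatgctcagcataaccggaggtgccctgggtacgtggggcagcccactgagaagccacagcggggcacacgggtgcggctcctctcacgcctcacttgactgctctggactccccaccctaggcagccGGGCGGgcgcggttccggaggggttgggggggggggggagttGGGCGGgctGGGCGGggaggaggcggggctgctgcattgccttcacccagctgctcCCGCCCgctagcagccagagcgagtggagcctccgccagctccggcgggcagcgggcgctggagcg
The Epcam window held 2 matches to CACCTG, with their first bases 187 and 19 bases before the start, and 1 GC box. The Prom1 window held 1 CACCTG, 222 bases before the start, with 1 GC box and 1 CCAAT box. Among all 32851 windows of this length, 20.2% held CACCTG, 35.7% the GC box and 37.4% CCAAT. The Ngfr window held 4 GC boxes and no CACCTG, and the Procr window held no match to any of these motifs. The motifs TATAAA (13.6% of all windows), CTTTGA, the core bound by Tcf and Lef factors (16.0%), and the half-site of the p53 family, to which p63 belongs (8.36%), had no match in the 4 windows shown. The second Prom1 window (chr5:44094719-44095018, minus strand), which is not shown, held 1 match to CTTTGA, with its first base 8 bases after the start. The windows shown also differed in CG dinucleotides, with 11 for Epcam, 10 for Prom1, 13 for Procr and 23 for Ngfr. The median over all windows was 7. A match describes letters and is no evidence that a factor bound there.

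Cd44, which encodes the main receptor for hyaluronan in the matrix, was above background by each of its 4 probe sets. The brightest, 1434376_PM_at, measured 8.46, 8.97 and 9.53 (log2) in replicates 1, 2 and 3 (8.99 ± 0.54, SD, n = 3), 2.89 above the threshold (95% interval 2.18 to 3.59, limma adjusted p = 0.000297). The probe set 1423760_PM_at had 8.61, 8.93 and 9.01. Both were lowest on replicate 1 and highest on replicate 3 as deposited, but after centring the second was highest on replicate 2 (8.69, 9.03 and 8.83) and after quantile normalization lowest on replicate 3. The other 2 probe sets were lowest on replicate 3 under all 3 scalings, with 8.57, 8.84 and 8.20 for 1452483_PM_a_at and 7.08, 7.33 and 6.54 for 1443265_PM_at.

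The probe sets of Cd44 thus differed between litters in opposite directions. On replicate 3, 1434376_PM_at was 0.82 above and 1443265_PM_at 0.66 below its own mean on the other arrays. The difference of 1434376_PM_at from 1452483_PM_a_at within an array, which a shift of the whole array cannot alter, was -0.11, 0.13 and 1.33 on replicates 1, 2 and 3. With the values as deposited, opposite signs on replicate 3 were common among genes with several probe sets above background, at 1310 of 3300 (39.7%). The spread of Cd44 was 1.48, larger than that of 92.5% of these genes, whose median was 0.56. Cd44 transcripts are known to be spliced in many ways, and which transcripts each probe set binds was not tested here.

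Ngfr, which encodes the p75 receptor that binds all neurotrophins, was above background by all 3 of its probe sets. The brightest measured 8.85, 8.63 and 8.35 (log2) in replicates 1, 2 and 3 (8.61 ± 0.25, SD, n = 3). This was 2.51 above the threshold (95% interval 2.08 to 2.93, limma adjusted p = 9.27e-05), and the lowest array still lay 2.36 above its own. A second probe set had 8.75, 8.56 and 8.32, and the third had 8.28, 8.26 and 8.21. All 3 were highest on replicate 1 and lowest on replicate 3, with ranges of 0.50, 0.44 and 0.08.

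Procr, the gene of the endothelial protein C receptor, measured 5.21, 5.12 and 5.13 (log2) in replicates 1, 2 and 3 (5.15 ± 0.05, SD, n = 3). Each array lay below its threshold, on average by -0.95 on the log2 scale (95% interval -1.24 to -0.65, limma adjusted p = 1.00), as did 29.9% of all genes. Its only probe set has a suffix that marks probes shared by several transcripts, so Procr had no value once such probe sets were left out. A signal under the threshold does not show that the transcript was absent.

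Ly6d, a member of the Ly6 family of lipid-anchored proteins, stood close to the background. Its values were 6.59, 6.54 and 6.47 on replicates 1, 2 and 3 (6.53 ± 0.06, SD, n = 3), each above its own threshold by 0.37 to 0.48. The mean distance of 0.43 was called (95% interval 0.11 to 0.75, limma adjusted p = 0.0171). This call was lost without replicate 1 (adjusted p = 0.171), without replicate 2 (0.139), with the 99th percentile as threshold (0.585) and with the pseudogenes of receptors kept in the background set (0.0648). Against tissue-restricted genes its distance was -0.68, and against the antigenomic controls -0.85.

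**Figure D2:**
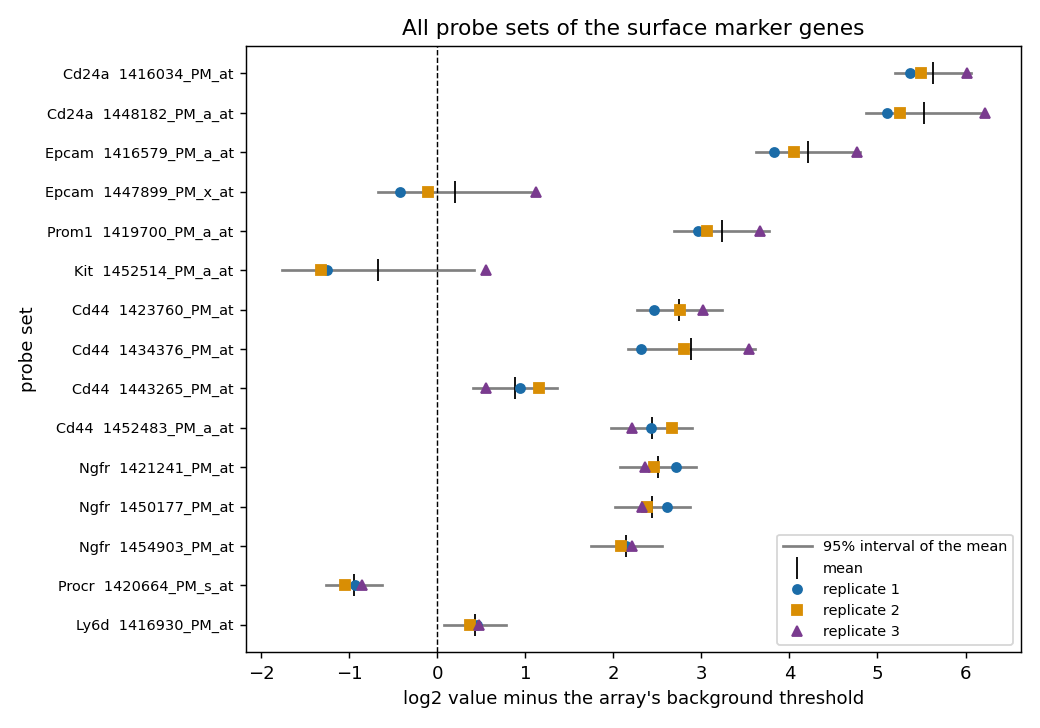
Log2 value minus the threshold of the array (horizontal axis) for all 15 probe sets (vertical axis), 1 point per replicate, with the mean as a black tick and its 95% interval as a grey line. The 4 probe sets of Cd44 and the 3 of Ngfr lie right of 0, and those of Epcam lie apart at 4.21 and 0.20.

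Taking every probe set by itself, 12 of the 15 were above background, against 49.2% of all single-gene probe sets. The 3 others were those of Kit and Procr and the dimmer one of Epcam. Of the 8 genes, 4 had more than 1 probe set, and Epcam was the one whose probe sets lay on both sides of the call. Over the whole array this held for 2922 of 7180 genes with several probe sets (40.7%).

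Between litters, the brightest probe sets of Cd24a, Epcam, Prom1 and Cd44 lay on the opposite side from Ngfr. Replicate 3 was above the mean of the other arrays by 0.42 for Cd24a, 0.66 for Epcam, 0.49 for Prom1 and 0.82 for Cd44, and below it by -0.39 for Ngfr and by -0.10 for Ly6d. The median of all genes above background was 0.24 on this measure, with 5th and 95th percentiles of -0.67 and 1.24. After each array was centred on a common median, the values were 0.15 for Cd24a, 0.39 for Epcam, 0.22 for Prom1, 0.55 for Cd44 and -0.66 for Ngfr. Quantile normalization kept these signs as well. On replicate 3, Kit was the member outside the central range of the genes above background, at 1.68 as deposited and 1.41 after centring. Kit itself does not belong to those genes. On replicate 1, Kit (-0.81) and Cd44 (-0.80) lay below the 5th percentile of -0.70, and on replicate 2 Kit (-0.87) lay below that of -0.66.

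By their brightest probe sets, Cd24a, Epcam, Prom1 and Cd44 were lowest on replicate 1 and highest on replicate 3, an order shared by 30.0% of the genes above background. Ngfr and Ly6d had the reverse order, shared by 16.5%. The Cd44 probe sets 1452483_PM_a_at and 1443265_PM_at were lowest on replicate 3, unlike the brightest one. After quantile normalization the first order held for 17.8% of genes and the second for 30.2%, after centring for 21.7% and 26.2%, and after quantile normalization Prom1 was then highest on replicate 2 (9.25, 9.37 and 9.37). The difference of Epcam from Ngfr within an array was 1.11, 1.59 and 2.40 on replicates 1, 2 and 3. Each litter was measured once, so the litter cannot be told apart from the number of sorted cells, the amplification or the array. These differences were not tested.

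**Figure D3:**
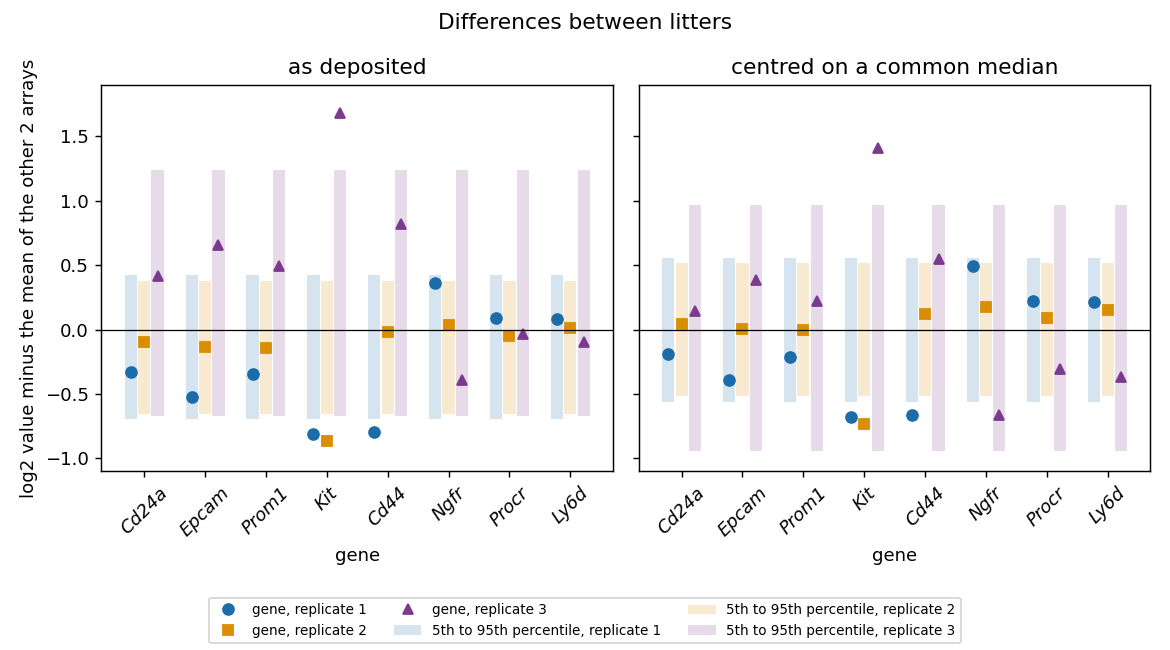
Log2 value of each gene, by its brightest probe set, on 1 array minus its mean on the other 2 (vertical axis), as deposited (left) and after centring (right), with shaded bars for the 5th to 95th percentile of the 9426 genes above background. Kit on replicate 3 lies above its bar in both panels, and Ngfr on replicate 3 lies below 0 while Epcam, Cd24a, Prom1 and Cd44 lie above it.

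Other surface markers used to sort mammary cells were above background in 16 of 22 measured cases, against 55.1% of all genes. Their median distance from the threshold was 2.25. The 16 include Itga6 and Lgr5, for which the cells were sorted, so their calls are not independent of the sort. Thy1 is also on the dermal mesenchyme list, Cd9 on the Epcam partner list and Cd59a on the Ly6 family list. These calls are counted again there. Another of the 16 was Itgb1, the CD29 gene, with values of 10.82, 10.76 and 10.69. Itga2, the CD49b gene of adult luminal progenitors, had 6.50, 6.31 and 6.54 and was not called (limma adjusted p = 0.0522). The tissue-restricted threshold left 14 of the 22 above it, against 34.4% of all genes. Ly6a and Bst2, also on the list, were not analysed here.

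Partners of the 8 proteins were above background in 46 of 74 measured genes (62.2%), with a median distance of 1.21. Over all genes the share was 55.1%, which also stands beside each partner count that follows. Kit had 8 of 9 partners above background, and the receptor gene itself was not called. Kitl, the gene of its ligand, measured 8.50, 8.76 and 8.98 in replicates 1, 2 and 3 (8.75 ± 0.24, SD, n = 3, limma adjusted p = 0.000124), and the signalling subunit gene Pik3r1 stood at 10.20 ± 0.08. Ptpn6, a phosphatase gene that restrains the receptor in blood cells, was not above background (5.28 ± 0.36).

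Epcam also had 8 of 9 partners above background. Cldn7, a claudin that binds EpCAM, measured 9.97, 10.30 and 10.22 in replicates 1, 2 and 3 (10.16 ± 0.17, SD, n = 3). Spint1, which encodes an inhibitor of the membrane protease matriptase, stood at 8.82 ± 0.25. Cldn1 was the partner not called (6.86 ± 0.84, limma adjusted p = 0.0828), with 7.80 on replicate 3 against 6.19 and 6.60.

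Of the Cd44 partners, 10 of 12 were above background. The hyaluronan synthase genes differed, with Has2 at 8.29 ± 0.17 and Has1 at 7.44 ± 0.34 (SD, n = 3) above background and Has3 at 5.59 ± 0.19 not. Has1 was not above the tissue-restricted threshold (limma adjusted p = 0.323). On the Ngfr list, which joins neurotrophins, Trk receptors, co-receptors and adaptors, 8 of 10 measured genes were above background. The co-receptor gene Sort1 had 10.08, 10.00 and 10.14, and the Trk receptor gene Ntrk3 had 7.37, 7.64 and 6.90. Ntrk3 was not above the tissue-restricted threshold (limma adjusted p = 0.761). Bdnf, a ligand gene, was not above background (6.19 ± 0.21).

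Of the 7 measured partners of Procr, 2 were above background. F2r, which encodes the thrombin receptor PAR1 that activated protein C can cleave, measured 10.88, 10.57 and 11.00 in replicates 1, 2 and 3 (10.82 ± 0.22, SD, n = 3, limma adjusted p = 2.23e-05). Proc, the gene of protein C itself, measured 7.06, 7.14 and 6.81, which was -0.21 from the stricter threshold, and F2rl2 was not above background (4.61 ± 0.51). The median distance of these partners was -0.86.

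Of 19 measured genes of the Ly6 family, 8 were above background (42.1%), such as Ly6e at 7.97 ± 0.51 and Lypd1 at 6.84 ± 0.22 (SD, n = 3), the second under the tissue-restricted threshold, whereas Ly6c1 stood at 5.08 ± 0.15. None of the 4 measured genes on the CD24 list, which holds lectins and other binding partners, was above background by limma. Siglecg, a lectin gene, stood at 5.30 ± 0.08, and 0 of the 4 had an unadjusted p under 0.05. Of 4 measured genes on the Prom1 list, 2 were above background. Hdac6, a deacetylase gene, stood at 9.43 ± 0.15, Plekhb1 at 7.24 ± 0.73 without passing the stricter threshold, and Prom2, the relative of Prom1, was not called with 5.69, 5.76 and 7.85 on replicates 1, 2 and 3 (limma adjusted p = 0.437).

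**Figure D4:**
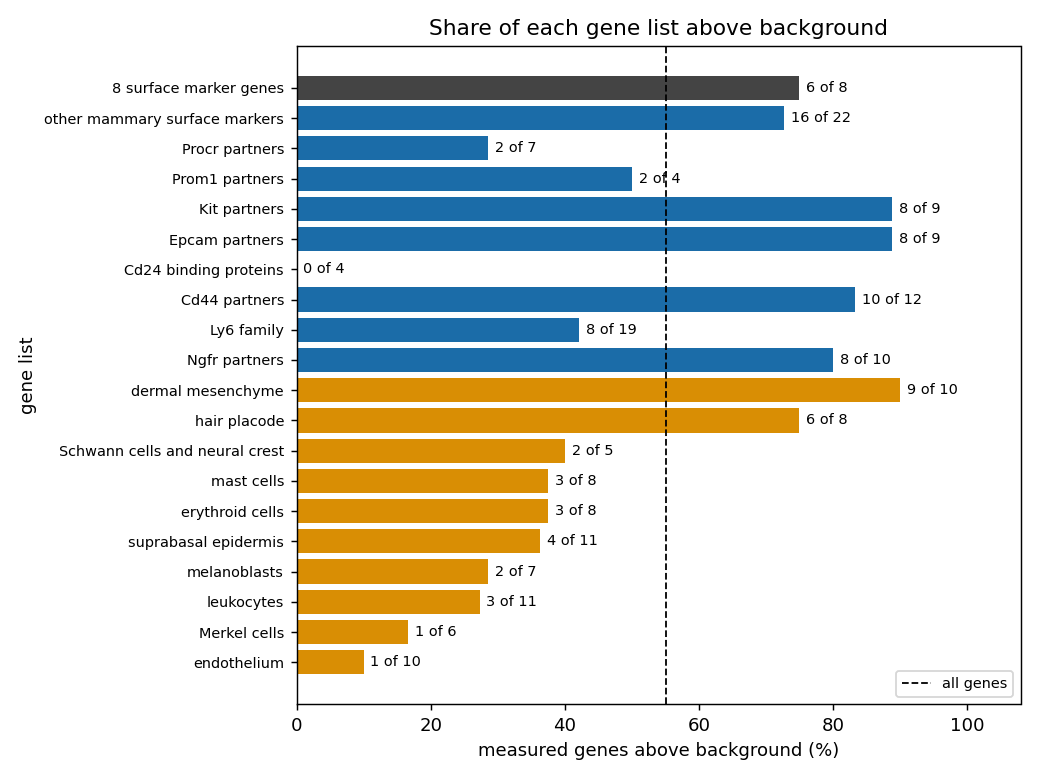
Percent of measured genes above background (horizontal axis, from 0) in each gene list (vertical axis), with the counts beside the bars and the share of all genes (55.1%) as a dashed line. The 8 surface marker genes are in grey, markers and partner genes in blue and lists of other cell types in orange, of which dermal mesenchyme reached 9 of 10 and endothelium 1 of 10.

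Several of the 8 genes are also expressed by other cells of the skin, so markers of those cells are given beside them. Together, 33 of 83 measured markers of other cell types were above background (39.8%), against 55.1% of all genes. The tissue-restricted threshold left 17 of them. For comparison, 15 of the 48 genes behind that threshold were above background. Dermal mesenchyme, which can express Cd44 and Ngfr, had 9 of 10 markers above background, and all 9 were also above the tissue-restricted threshold. The collagen gene Col1a1 measured 13.10, 13.03 and 12.82 in replicates 1, 2 and 3, and the transcription factor gene Twist2 had 11.09, 10.76 and 10.55, while Pdgfra, the receptor gene of most dermal fibroblasts, was not above background with 4.62, 4.52 and 5.52. The summed signal of the list on the linear scale was 27210, 25475 and 23253, highest on replicate 1 and lowest on replicate 3. Most of each sum came from Col1a1 and Col3a1. Twist2, Col1a1, Col1a2 and Col3a1 each had this order, and the other markers of the list did not. Among those, Lum, Fn1 and Pdgfra were highest on replicate 3, and Dpt and Thy1 on replicate 2. As deposited, Ngfr had the order of the sum too, as did the sums for leukocytes and suprabasal epidermis and 16.5% of the genes above background. For the mesenchyme list, the median difference of replicate 3 from the other arrays was -0.14 as deposited and -0.41 after centring. The part of mesenchymal RNA in the Ngfr and Cd44 signals was not tested.

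Schwann cells and neural crest, which express Ngfr, had 2 of 5 measured markers above background. Sox10 and Erbb3 were these 2, and both were also above the tissue-restricted threshold. The summed linear signal was 829, 847 and 1603 on replicates 1, 2 and 3, highest on replicate 3. Fabp7, named after its values were seen, held much of that difference with 5.64, 5.47 and 8.75, and it was not above background (limma adjusted p = 0.414). Sox10 had 7.98, 7.82 and 8.26, and Erbb3, also expressed in epithelium, had 8.80, 8.95 and 9.61, whereas Foxd3, a neural crest gene, lay below the threshold on each array (5.12 ± 0.36, SD, n = 3). The part of such cells in the Ngfr and Sox10 signals was not tested.

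Mast cells and melanoblasts, both marked by Kit, had 3 of 8 and 2 of 7 markers above background. The tissue-restricted threshold left 0 of the 8 (limma adjusted p = 0.140 for Cma1) and 1 of the 7, Sox10. This gene was on the Schwann cell and neural crest list too, and which cells gave its signal was not tested. The summed linear signal of mast cell genes was 521, 903 and 441 on replicates 1, 2 and 3, and Cma1 held most of the rise on replicate 2. Cma1 had 7.54, 8.96 and 7.19, Hdc stood at 6.60 ± 0.37, and Cpa3 was not above background with 4.39, 5.66 and 4.62. The sum for melanoblast genes was 600, 635 and 748, highest on replicate 3 as deposited but on replicate 2 after centring (639, 677 and 660) and after quantile normalization. Pmel had 7.16, 7.21 and 7.63, and Dct, an early melanoblast gene, was not above background (6.36 ± 0.58, SD, n = 3). Whether such cells gave the Kit signal on replicate 3 was not tested.

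Endothelium, the tissue for which the protein C receptor is named, had 1 of 10 markers above background. This was Pecam1, with 8.12, 8.30 and 6.47 on replicates 1, 2 and 3, which did not pass the stricter threshold (limma adjusted p = 0.403), and Cdh5, the cadherin gene of vessels, lay below the threshold on each array (5.81 ± 0.27, SD, n = 3). The summed linear signal was 804, 829 and 578, and Pecam1 held most of the drop on replicate 3. Leukocytes, which carry CD44, had 3 of 11 markers above background, with summed signals of 1226, 1171 and 1080, and 1, Cd68, above the stricter threshold. Cd68 stood at 8.83 ± 0.26 and Csf1r at 6.47 ± 0.14, and Ptprc, the gene of the pan-leukocyte antigen CD45, was below the threshold on each array at 3.91, 3.91 and 4.26.

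Erythroid cells, whose precursors express Kit and Cd24a, had 3 of 8 markers above background. The tissue-restricted threshold left 2 of them, Hba-a1 and Klf1. The adult globin gene Hba-a1 measured 12.27, 12.61 and 11.19 in replicates 1, 2 and 3, and the embryonic globin gene Hbb-y stood at 5.42 ± 0.19 (SD, n = 3). Klf1 was above background at 8.15 ± 0.81. The summed signals were 5673, 7055 and 2798. Most of each sum came from Hba-a1, whose probe set suffix marks probes that can bind other transcripts. The part of erythroid cells in the Kit and Cd24a signals was not tested. Suprabasal epidermis, which expresses Ly6 proteins, had 4 of 11 markers above background, with summed signals of 1258, 1225 and 1186. Krt1 (6.66 ± 0.34) and Krt10 (7.94 ± 1.14) were among the 4, neither passed the test against the tissue-restricted threshold, and Krtdap (5.87 ± 0.28) was not.

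Hair placodes, an epidermal appendage that also expresses Lgr5 later in life, had 6 of 8 markers above background, such as Edar at 8.21 ± 1.00 and Shh at 6.76 ± 0.12 (SD, n = 3), and Lhx2 was not (4.67 ± 0.13). Their summed linear signal was 1911, 1650 and 2740 on replicates 1, 2 and 3. Merkel cells had 1 of 6, Sst at 7.15 ± 0.06, with Atoh1 below the threshold on each array (5.20 ± 0.26) and summed signals of 415, 422 and 410. Of these genes, Edar, Shh and Sst did not pass the test against the tissue-restricted threshold (limma adjusted p = 0.0568 for Edar). That threshold left 3 of the 8 hair placode markers, Sox9, Dkk4 and Bmp2, and 0 of the 6 Merkel cell markers. Which cells gave the hair placode signal, sorted mammary cells included, was not tested.

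**Figure D5:**
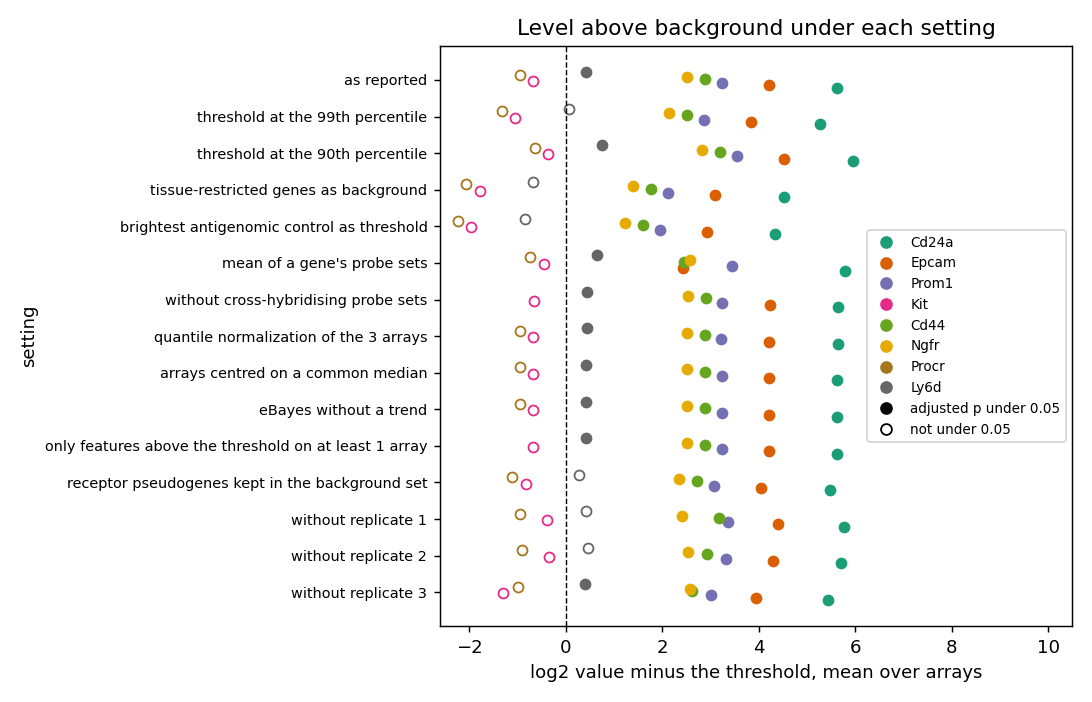
Mean log2 distance from the threshold (horizontal axis) of the 8 genes under the reported setting and each alternative (vertical axis), with filled points for an adjusted p under 0.05. Ly6d crosses 0 or loses its call in 6 of the alternatives, and Procr and Kit stay left of 0 wherever they have a value.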

How the data were processed

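RNA of 3 samples of 1 group was measured on Affymetrix arrays, 1 array per litter. Per the labels' protocols, 25 cycles of whole transcriptome amplification preceded labelling. The authors deposited log2 values per probe set for 45141 probe sets. The submitters' processing notes name RMA and affy, and the settings and a genome build are not given in the sources used here.

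Probe sets with 1 gene symbol in the platform annotation (28898) were used, and those with several (551) or none listed were left out. The threshold was the 95th percentile of 74 receptor genes, leaving out 2 receptor pseudogenes. The distance from it was tested with limma 3.58.1 in R 4.3.3 (intercept, empirical Bayes with a trend, one-sided, Benjamini-Hochberg over 17097 genes, or over 28898 probe sets). The p-values leave out the uncertainty of the threshold. The test was tried on simulated data. Tables and plots were made in Python 3.11.15 with numpy 2.4.6, pandas 2.3.3 and matplotlib 3.10.9.

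The members and all gene lists were chosen with earlier results of these data known. Named were the 8 genes, Lgr5, Itga6, Ptprc, Pecam1 and, in list order, the first 2 genes above background and the first 1 not above it of each list. Further genes of these lists were named after their values were seen. Alternatives changed the threshold, the probe set of a gene, the normalization, the variance model, a filter on dim features and the arrays used. The inclusion of pseudogenes was chosen as an alternative after seeing the data. Promoter windows were taken from RefSeq (GRCm38.p6).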

Additional observations from a re-analysis of the deposited data

How the results depend on the processing

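Over 14 alternatives, Cd24a, Epcam, Prom1, Cd44 and Ngfr were called in each, and Kit (14 alternatives) and Procr (12 alternatives that gave it a value) in none. Centring the arrays moves values and thresholds alike and so cannot change a call. Ly6d kept its call in 8 of 14, and turned to -0.68 against tissue-restricted genes and -0.85 against antigenomic controls. Its distance was 0.41 to 0.46 when 1 replicate was left out. The count of the 8 genes above background was 5 or 6 throughout, and that of their 15 probe sets 10 to 12. The count over all genes was 5881 with tissue-restricted genes and 5399 with the antigenomic control, in place of 9426. Markers of other cell types came to 17 and 15 under these thresholds, in place of 33. Other surface markers ranged from 12 to 18 and partner genes from 32 to 53. Whether the 3 arrays were normalized together is unknown, so differences between litters rest on the scaling. Signal near the threshold, as for Ly6d, Kit and Procr, limits what can be said of weakly expressed genes. No paired analysis was possible because the series has 1 group.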
